A study of Mus musculus with 2 samples.

Results

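The cells described here are macrophages of neonatal mouse skin that carried RNA of the complement protein C1q but almost none of 4 genes that mark long-resident skin macrophages. They were selected on measured values: of the cell barcodes with at least 200 genes and under 10% mitochondrial UMIs, those in which C1qa, C1qb and C1qc together made up at least 0.3% of the UMIs (unique molecular identifiers, each 1 captured RNA molecule), with fewer than 2 UMIs of Lyve1, Folr2, Cd209f and Timd4, no UMI of Cd3d, Cd3e or Cd3g, and fewer than 3 UMIs of the cell cycle genes Mki67 and Top2a. This gave 419 of 27589 barcodes, 313 of 19542 in the isotype control library and 106 of 8047 in the anti-Gr-1 library. They are called members below.

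The libraries come from wild-type C57BL/6 mice at postnatal day 15, whose skin was digested with collagenase and sorted for live CD45+ leukocytes before droplet-based 3′ RNA sequencing. From day 4 to day 14 the mice were given, every other day, either an isotype control antibody or anti-Gr-1. The latter recognises Ly6G of neutrophils and Ly6C of monocytes, and its purpose in the design was the depletion of monocytes. Each treatment gave 1 library, from a pool of 4 to 7 mice. There is therefore no replicate, no difference was tested, and the 95% intervals in parentheses cover counting error only, not differences between mice or between cells.

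C1q is the recognition molecule of the classical complement pathway. It is assembled from the chains encoded by C1qa, C1qb and C1qc, and tissue macrophages are a main source of it. In the dermis, macrophages with Lyve1, Folr2 and Timd4 are known as long-lived resident cells that lie near vessels, while macrophages with Ccr2 and MHC class II are known to be renewed from blood monocytes, and macrophages with Cx3cr1 include cells along nerves.

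The 3 genes that chose the cells lie side by side on the minus strand of chromosome 4 (GRCm38): C1qb at 136880129 to 136886187, C1qc at 136889804 to 136893065 and C1qa at 136895917 to 136898803. Because their RNA defines the population, 300-base windows around the annotated starts of C1qb (chr4:136886151-136886450) and C1qc (chr4:136892865-136893164) are shown, from the RefSeq table for GRCm38.p6. Both were read on the minus strand, 5′ to 3′, with matches in capitals to GAGGAA, a core bound by the myeloid factor PU.1, or its reverse complement TTCCTC, and to TGCTGA, a core of sites bound by MAF factors, or TCAGCA.
C1qb: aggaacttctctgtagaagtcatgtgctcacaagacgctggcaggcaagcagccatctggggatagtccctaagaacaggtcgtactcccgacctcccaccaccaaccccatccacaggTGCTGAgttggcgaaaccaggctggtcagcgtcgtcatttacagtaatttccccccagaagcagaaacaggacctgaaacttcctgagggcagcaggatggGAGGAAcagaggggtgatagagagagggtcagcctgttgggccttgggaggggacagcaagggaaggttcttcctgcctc
C1qc: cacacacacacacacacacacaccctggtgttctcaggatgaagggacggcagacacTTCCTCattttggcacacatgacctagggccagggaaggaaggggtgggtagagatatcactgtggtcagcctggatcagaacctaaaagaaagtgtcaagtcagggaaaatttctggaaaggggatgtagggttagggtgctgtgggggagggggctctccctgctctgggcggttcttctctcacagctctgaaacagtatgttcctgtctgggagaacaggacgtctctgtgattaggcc
The C1qb window held GAGGAA 30 bases and TGCTGA 131 bases before the RefSeq start, and the C1qc window held TTCCTC 193 bases before its own. For C1qc the RefSeq start lies inside the gene positions given above, which come from GENCODE, so by those the motif is nearer the start. These short motifs are common: 28.3% of 32851 mouse promoter windows of 300 bases held the GAGGAA motif on either strand and 19.5% held the TGCTGA motif, so the matches are a description of the letters only.

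The limits of the rule cut through a continuum, though few anti-Gr-1 barcodes lay near the C1q limit. C1q RNA made up 0.301% to 1.80% of the UMIs of an isotype control cell, with the middle of the distribution between 0.415% and 0.732%, and 0.313% to 1.75% in anti-Gr-1 cells, with the middle between 0.526% and 0.900%. Just above the limit, between 0.3% and 0.35%, lay 33 and 2 cells, and just below it, between 0.25% and 0.3%, lay 50 and 6 barcodes that met the other limits. Of the 313 and 106 cells, 244 and 79 had no UMI of the 4 resident markers and 69 and 27 had 1. The barcodes left out for resident markers, called C1q resident macrophages below, numbered 206 and 106, and 34 and 11 of them had just 2 such UMIs. A further 128 and 34 barcodes were left out for 1 Cd3 UMI alone. Few C1q UMIs were enough in shallow barcodes: the lowest C1q count of a member was 2 and 3, with medians of 24 and 63. No UMI of C1qa was found in 10 and 1 members, of C1qb in 21 and 0 and of C1qc in 17 and 1. The part of free RNA in these calls was not tested.

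**Figure D1:**
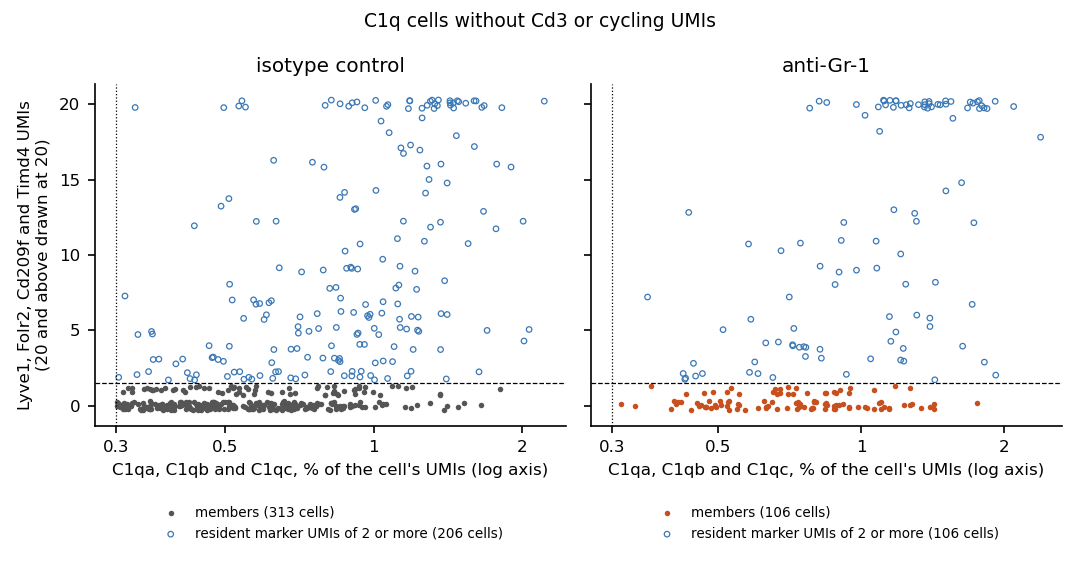
Resident marker UMIs (20 and above drawn at 20, points spread a little) against the C1q share of UMIs (%, log axis) for the C1q barcodes without Cd3 or cycling UMIs, 1 panel per library; filled points are members, open points C1q resident macrophages, and dashed lines the limits; each point is a barcode. Members run upward from 0.301% and 0.313%. Barcodes below the C1q limit are not drawn, so the panels do not show the other side of it. Most members, 244 and 79, lie at 0 resident UMIs.

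In summed RNA the cells carried 2197 CPM of C1qa (UMIs scaled to a total of 1e+06 UMIs of the cells together), 2208 of C1qb and 1540 of C1qc in the isotype control library, and 2714, 2786 and 1876 CPM in the anti-Gr-1 library. C1q resident macrophages carried 3580, 2903 and 2761 CPM and 4295, 3864 and 3149 CPM. The 4 resident markers together came to 44.1 and 28.9 CPM in the cells and to 1645 and 2284 CPM in the resident macrophages, as the rule required.

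The label of macrophage was checked against genes that the rule did not use. Csf1r, the receptor for the growth factor that macrophages need, stood at 720 and 859 CPM, against 36.5 and 16.8 CPM in T cell barcodes (2 or more Cd3 UMIs and no C1q UMI), whose myeloid RNA gives the level of free RNA and mixed droplets. Fcgr1, the high-affinity receptor for immunoglobulin G, stood at 92.0 and 99.5 CPM against 2.26 and 0.484. Mertk, a receptor for apoptotic cells, had 55.6 and 82.4 CPM against 0.379 and 0.242. Ms4a7, a membrane protein typical of mature macrophages, had 369 and 488 CPM against 1.80 and 0.322. The macrophage transcription factor Maf was at 1018 and 1217 CPM. Csf1r, Fcgr1, Mertk and Ms4a7 all stood far above the T cell level, as macrophage genes. Of the 16 identity genes listed, 14 reached 3 times that level. Together the 16 came to 13912.5 and 15811.7 CPM in the cells, below the 23600.7 and 25005.9 of C1q resident macrophages. None of the 16 identity genes differed between the libraries by 1.5-fold or more.

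Depth differed between the libraries and bears on every share below. The cells had a median of 4613 UMIs in the isotype control library and 8310.5 in the anti-Gr-1 library, near the medians of all barcodes of each library (4884 and 8139), and 28.8% against 4.72% of them had fewer than 2000 UMIs. Some markers of other lineages were near 0: Cd79a (B cells), Xcr1 (type 1 dendritic cells), Trac (T cells), Krt14 (keratinocytes) and Ly6g (neutrophils) each had at most 7.67 CPM in either library, and the 5 erythroid genes were at 0. Other lists were not low. The 8 B cell genes summed to 253 and 296 CPM, mostly Ighm, against 217 and 164 in T cell barcodes, and the 8 type 1 dendritic cell genes to 254 and 154 CPM, mostly Irf8. The 10 type 2 dendritic cell genes summed to 1268 and 953 CPM, led by Mgl2 and Clec10a, and the 8 classical monocyte genes to 1951 and 1824 CPM, led by F13a1 and Ccr2. The 8 non-classical monocyte genes came to 577 and 377 CPM, below the 1450 and 1297 of T cell barcodes. How much of that RNA the T cells made themselves was not tested. The part of other cells in the results was not tested. The summed levels of 8 mast cell genes were 275 and 63.1 CPM, of 8 Langerhans cell genes 197 and 61.0 CPM and of 10 T cell genes 210 and 129 CPM. Signs of a droplet with more than 1 cell (UMIs of both Xist and Y-linked genes, or 2 or more UMIs of lineage genes of other cells) were seen in 117 (37.4%) and 49 (46.2%) of the cells, which were kept. The libraries shared 61 barcode sequences, and no selected cell had the same barcode in both.

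The members were a small share of both libraries. They made up 1.60% (1.43% to 1.79%) of all isotype control barcodes and 1.32% (1.08% to 1.59%) of the barcodes after anti-Gr-1, a ratio of 0.822 (0.653 to 1.03). Thinning to 2000 UMIs gave equal depth but left out shallower barcodes unevenly: 14504 of 19542 barcodes remained after isotype control and 7704 of 8047 after anti-Gr-1. Among these the shares were 3.10% and 2.36% and the ratio 0.763 (0.639 to 0.909). These shares count 449 and 182 barcodes, of which 215 and 98 were members at full depth and 72 and 33 were resident macrophages. The rest failed another limit at full depth. A Cd3 UMI was present in 46.0% and 29.1% of C1q barcodes at full depth, and in 24.5% and 10.5% after thinning. Barcodes with Cd3 RNA can thus enter unevenly, and the ratio is not a correction for depth alone. Among the C1q barcodes with no Cd3 UMI and fewer than 3 cell cycle UMIs, the cells were 60.3% (56.0% to 64.5%) against 50% (43.1% to 56.9%). After thinning these shares came to 72.7% and 67.7%. Thinning also moved 36.4% and 31.7% of the C1q resident macrophages across the limit of 2 resident UMIs, so shallow resident cells cannot be told apart from the selected ones by this rule. With a C1q limit of 0.5% the ratio of the shares was 1.15, above 1.

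Compared with C1q resident macrophages of the same library, the cells carried more RNA of all 8 measured MHC class II genes, of 8 of 14 chemokines and of Il1b, and less RNA of 18 of 20 resident macrophage genes outside the rule, in both libraries. This contrast is the one that the rule drew, so it is given as a description. Of 7524 genes with enough UMIs, 285 (3.79%) were at least 1.5-fold higher in the cells in both libraries and 373 (4.96%) at least 1.5-fold lower. With at least 100 UMIs per gene, which leaves fewer genes to count, they were 127 and 177. All ratios below put the cells over the resident macrophages, isotype control first.

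All 8 measured MHC class II genes, which encode the molecules that present antigen to CD4 T cells, were 1.5-fold or more higher in both libraries, with median log2 ratios of 1.32 and 1.86 against -0.09 and -0.06 over all genes. Cd74, the chaperone of the class II molecules, stood at 11925 and 9496 CPM in the cells against 4785 and 2747 CPM, ratios of 2.49 and 3.46. H2-Aa stood at 5711 and 4739 against 2122 and 1102 CPM, and Ciita, the factor that switches on the class II genes, at 100.2 and 88.8 against 39.0 and 17.8 CPM. T cell barcodes carried 6198 and 3642 CPM of Cd74, and the part of free RNA and mixed droplets in the difference was not tested.

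Chemokine receptors were also higher, at 5 of 6 measured genes. Ccr2, the receptor through which monocytes leave the bone marrow and enter tissue, was at 851 and 740 CPM against 206 and 104, ratios of 4.12 and 7.11. Cx3cr1, the fractalkine receptor, was at 243 and 292 CPM against 51.8 and 45.9. Ccr2 and Cx3cr1 thus stood well above the resident macrophages in both libraries, while T cell barcodes carried 126 and 110 CPM of Cx3cr1.

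Of 14 measured chemokines 8 were higher and 4 lower. Their list summed to 14205 CPM in the cells against 15477 in the resident macrophages of the isotype control library and to 15379 against 13107 in the anti-Gr-1 library, so the sum had no common direction. Ccl4 (1479 and 1875 CPM against 219 and 331) and Ccl3 (549 and 798 against 79.3 and 147), chemokines that draw monocytes and T cells, had ratios of 6.77 (6.02 to 7.63) and 5.67 (5.05 to 6.37) for Ccl4 and of 6.93 and 5.42 for Ccl3. Cxcl2, which draws neutrophils, stood at 3997 and 3737 CPM against 962 and 489. Ccl8 went the other way, at 1884 and 1440 CPM in the cells against 5688 and 3272, ratios of 0.331 and 0.440. Ccl3, Ccl4 and Cxcl2 were thus higher here and Ccl8 lower, in both libraries.

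Of the 8 measured interleukin-1 family genes 3 were higher in both libraries and none lower, by medians of 0.17 and 0.05. Il1b, the inflammatory cytokine itself, was at 1035 and 635 CPM against 303 and 66.6, ratios of 3.42 and 9.55. Its receptor antagonist Il1rn was at 163 and 139 CPM against 53.1 and 25.3, and Nlrp3, the sensor of the inflammasome that releases interleukin-1, at 143 and 80.2 against 35.0 and 21.6. Of 15 genes that restrain NF-kB and cytokine signals 9 were higher and 0 lower, and of 11 cytokines and growth factors 7 were higher and 1 lower. Tnf stood at 196 and 122 CPM against 50.4 and 29.1. By the rule for named genes, Clec12a, an inhibitory lectin receptor (ratios 6.16 and 4.49), Ccrl2 (4.03 and 3.85), Slamf9 (3.37 and 4.79), Lair1, an inhibitory collagen receptor (3.51 and 3.80), Hbegf, a ligand of the EGF receptor (3.57 and 5.48), and Sowahc (3.61 and 12.3) were among the 12 genes furthest above the resident macrophages. Mucl1 was also among them but came from few cells, as described below.

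**Figure D2:**
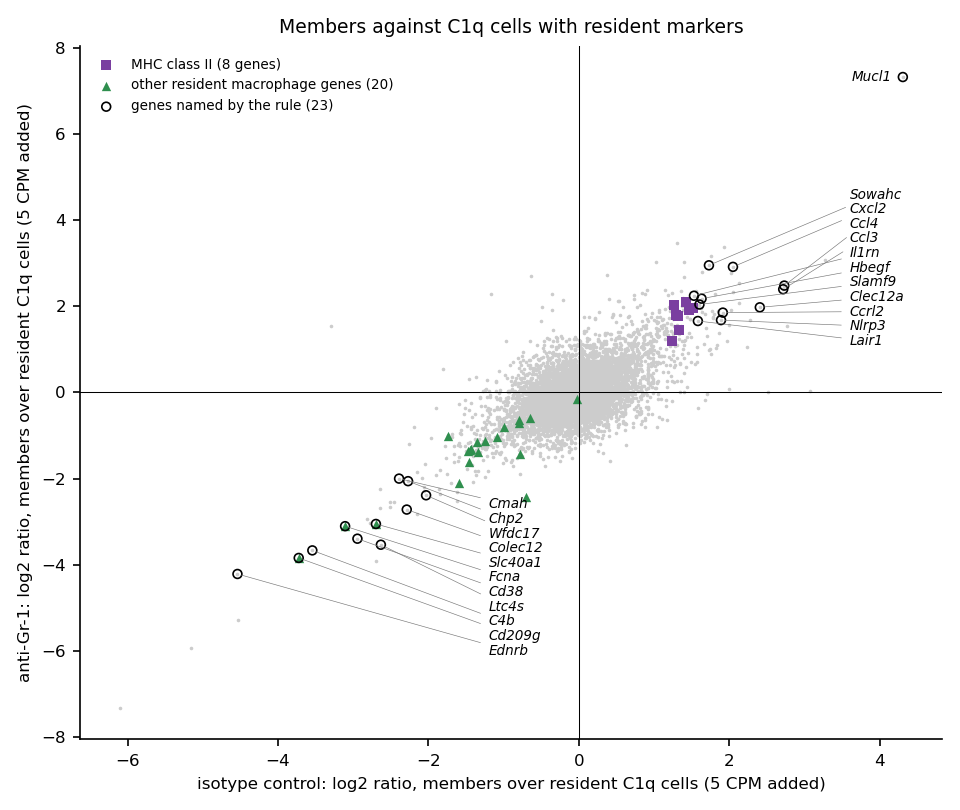
Log2 ratio of the cells' CPM over that of C1q resident macrophages (5 CPM added), isotype control against anti-Gr-1, for the 7524 measured genes; each point is a gene, squares are MHC class II genes, triangles resident macrophage genes outside the rule and circles genes named by the rule. The 8 class II genes, Ccl4 and Cxcl2 lie in the upper right and Ednrb and C4b in the lower left.

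Of 20 measured resident macrophage genes outside the rule, 18 were 1.5-fold or more lower in both libraries and 0 higher, with medians of -1.35 and -1.32. Cd163, the receptor for haemoglobin bound to haptoglobin, stood at 357 and 532 CPM against 1206 and 1086, and the selenium carrier Selenop at 2492 and 2942 against 6404 and 6574. Igf1 was close, at 921 and 811 against 937 and 895 CPM. By log2 ratio with 5 CPM added, the gene named by the rule furthest below was Ednrb, the endothelin receptor type B. It was at 37.7 and 48.1 CPM against 988 and 984, ratios of 0.0382 and 0.0489. Cd209g had lower plain ratios, 0.0164 and 0.0333, but only 2 and 4 UMIs in the cells. C4b, the complement component C4, was at 13.4 and 15 against 210 and 249. Of 14 measured complement genes 6 were lower and 0 higher in both libraries. Fcna, a ficolin that starts the lectin pathway, was at 7.67 and 10.7 CPM against 104 and 130. Apoe, the main lipid carrier of macrophages, was at 4801 and 6016 CPM against 13304 and 13660. Cd38 (4.47 and 3.21 CPM against 67.9 and 81.6) and Ltc4s, which makes leukotriene C4 (21.7 and 13.9 against 161 and 215), were further named genes below the resident macrophages.

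Smaller lists divided. Of 15 apoptotic cell uptake genes 3 were higher and 4 lower, and Axl, the receptor tyrosine kinase related to Mertk, was at 42.8 and 30.0 CPM against 12.1 and 5.63. Of 7 Fc receptor genes 1 was higher, Fcgr4 (64.5 and 58.8 CPM against 27.6 and 16.9), and 2 lower, among them Fcgrt, which recycles immunoglobulin G (249 and 251 against 941 and 960). Of 22 lysosomal genes 1 was higher and 4 lower. Of 9 iron genes 0 were higher and 4 lower. Of 5 measured fibroblast genes 4 were higher, such as Col1a1 at 112 and 124 CPM against 29.6 and 64.7. The 7 listed fibroblast genes summed to 397 and 451 CPM in the members, 146 and 218 in the resident macrophages and 53.8 and 29.7 in T cell barcodes, and the source of this RNA was not tested. Without the barcodes with doublet signs, 275 genes were higher and 351 lower in place of 285 and 373.

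The cells also differed from other myeloid cells of the same libraries. Barcodes with Ly6c2 and Plac8 RNA and little C1q, the pattern of classical monocytes (130 and 22 barcodes), carried 4.55 and 0 CPM of Mertk and 25 and 0 of Ms4a7, far below the 55.6 and 82.4 and the 369 and 488 CPM of the cells. Ccr2 was at 843 and 486 CPM in those barcodes, against 851 and 740 CPM in the cells, so it was close in the isotype control library and higher in the cells in the anti-Gr-1 library. Barcodes with Cd209a RNA and little C1q, a pattern of type 2 dendritic cells and related dermal cells (1506 and 820 barcodes), carried 170 and 145 CPM of Flt3, the growth factor receptor of dendritic cells, against 10.2 and 6.42 in the cells. Their Cd74 was at 26064 and 25386 CPM, above the cells. Igf1 was at 34.9 and 2.81 CPM in the monocytes and 17.8 and 3.22 in the Cd209a barcodes, against 921 and 811 CPM in the cells.

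The cells were not uniform among themselves. To compare shares at equal depth, the 223 and 101 cells with at least 2000 UMIs (medians 5862 and 8570) were thinned to 2000 UMIs, which left out 90 and 5 shallower cells. An Mrc1 or Cd163 UMI was present in 91.5% and 91.1% of them, or 90.4% and 98.1% without thinning. These genes encode the mannose receptor and the haemoglobin receptor of dermal macrophages. The same share was 98.0% and 99.0% in C1q resident macrophages and 73.0% and 72.5% in Cd209a barcodes. It was 32.8% and 9.09% in the Ly6c2 Plac8 barcodes and 13.8% and 5.52% in T cell barcodes. Such a UMI was thus common in Cd209a barcodes as well.

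A Ccr2 UMI was present in 52.5% (45.7% to 59.2%) of isotype control and 37.6% (28.2% to 47.8%) of anti-Gr-1 cells, or 52.4% and 41.5% without thinning. The same share was 13.1% and 8.65% in C1q resident macrophages, 30.1% and 26.3% in T cell barcodes and 73.4% and 50% in the Ly6c2 Plac8 barcodes. After thinning, the share in the cells was above that in T cell barcodes in both libraries. The intervals cover counting error within each library only, and the difference between the libraries was not tested. A Cx3cr1 UMI was present in 20.2% (15.1% to 26.0%) and 25.7% (17.6% to 35.4%) of the cells, or 27.8% and 34.9% without thinning. That is close to the 20.1% and 16.6% of T cell barcodes and the 16.4% and 22.7% of the Ly6c2 Plac8 barcodes. Only 5.56% and 4.81% of resident macrophages and 8.14% and 5.86% of Cd209a barcodes had one. Resident macrophages and Cd209a barcodes of the same libraries thus lay below T cell barcodes. How many of the Cx3cr1 UMIs in the cells, or in T cell barcodes, are free RNA was not tested.

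MHC class II RNA (H2-Aa, H2-Ab1, H2-Eb1 and Cd74) made up a median of 2.50% of the UMIs of isotype control cells, with the middle of the distribution between 0.85% and 3.55%, and a median of 1.55% in anti-Gr-1 cells, with the middle between 0.15% and 3.35%. At or above 1% lay 73.5% (67.2% to 79.2%) and 55.4% (45.2% to 65.3%) of the cells, or 70.6% and 54.7% without thinning. The cut is a point in a range, with 16 and 5 cells between 0.8% and 1.2%. T cell barcodes reached it in 21.0% and 8.32%, resident macrophages in 19.2% and 13.5% and Cd209a barcodes in 98.2% and 98.7%. The Ly6c2 Plac8 barcodes did so in 47.7% and 36.4%.

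**Figure D3:**
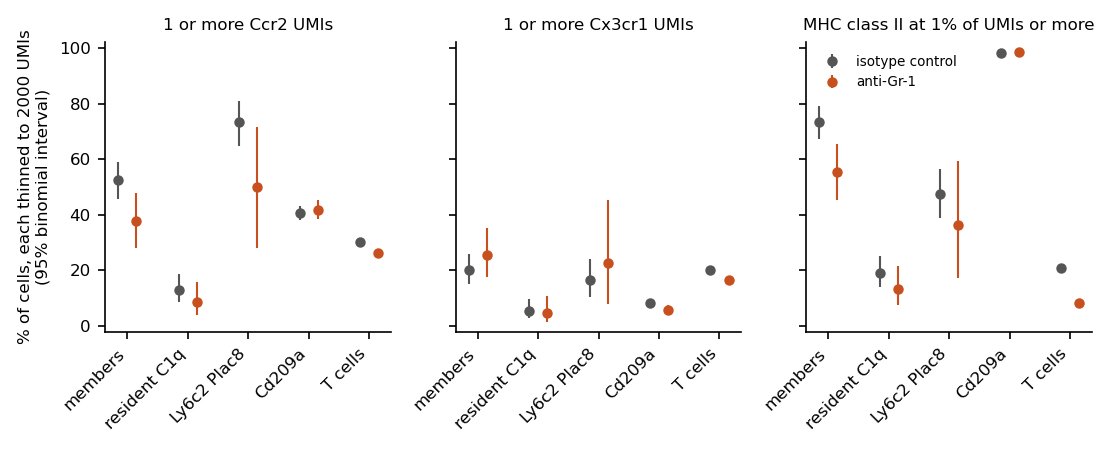
Share of cells (%) with a Ccr2 UMI, a Cx3cr1 UMI or MHC class II RNA at 1% of UMIs or more after thinning to 2000 UMIs, in members and 4 other sets of barcodes; points are libraries and bars 95% Clopper-Pearson intervals. Members lie above C1q resident macrophages in every panel, for example 52.5% against 13.1% for Ccr2 in the isotype control.

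These features overlapped. Of the cells with a Ccr2 UMI 86.3% and 86.8% had MHC class II RNA at 1% or more, against 59.4% and 36.5% of the cells without one. Of the cells with a Cx3cr1 UMI 51.1% and 30.8% reached that level, against 79.2% and 64.0% of the rest. Ccr2 UMIs were found in 46.7% and 38.5% of cells with Cx3cr1 and in 53.9% and 37.3% of those without. MHC class II RNA thus went with Ccr2 and less with Cx3cr1, in both libraries, while Ccr2 and Cx3cr1 showed no clear order.

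Cells with a Ccr2 UMI (117 and 38) were set against those without (106 and 63), at the thinned depth and within each library. Genes named in the next paragraphs were chosen after their values were seen, and the ratios describe these cells with no test. Of 1480 genes with enough UMIs, 55 (3.72%) were 1.5-fold or more higher in both libraries and 89 (6.01%) lower. All 7 measured MHC class II genes were higher, with medians of 0.89 and 1.33, and so were all 5 measured genes of recruited monocytes, 1 of which is Ccr2 itself. Fn1, the matrix protein fibronectin, was at 491 CPM with and 113 CPM without Ccr2 in the isotype control library, a ratio of 4.34 (2.78 to 7.05). In the anti-Gr-1 library it was at 855 CPM with Ccr2, and the cells without had 1 UMI of it, a ratio of 108 (18.7 to 4321). Retnla, a secreted protein of alternatively activated macrophages, was at 3944 against 410 CPM and at 8737 against 1167 CPM, ratios of 9.61 and 7.49. The anti-Gr-1 ratio of Retnla rested on few cells: it was 2.30 without doublet signs and 359 (63.7 to 14260) without the 5 cells with most of its UMIs, while the isotype control ratio was 14.0 and 5.93. For Fn1 the ratios without doublet signs were 2.71 and 26.1. Ear2, an eosinophil-associated ribonuclease (5.64 and 9.95), Lyz1, a lysozyme (5.05 and 21.2), and Ccl6, a macrophage chemokine (838 against 222 CPM and 1671 against 111 CPM), had the same direction.

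The resident side was lower with Ccr2: 12 of 15 measured resident macrophage genes outside the rule were 1.5-fold or more lower in both libraries and 0 higher, with medians of -0.70 and -1.32. Gas6, the bridging ligand of the Mertk family, was at 179 against 547 CPM and at 39.5 against 492 CPM. Stab1, a scavenger receptor of resident macrophages, had ratios of 0.355 and 0.204, and the chemokine Pf4 of 0.436 and 0.413. The widest gap was in Ccl8, at 530 against 3934 CPM (ratio 0.135, 0.111 to 0.163) and at 52.6 against 3087 CPM (0.0170, 0.00462 to 0.0440). Ccl12 had ratios of 0.176 and 0.339 (0.310 and 0.522 without doublet signs) and Ccl7 of 0.473 and 0.255. Of 14 measured chemokines 2 were higher with Ccr2 in both libraries and 5 lower. The rule required C1qa, C1qb and C1qc together at 0.3% of UMIs or more in every cell, so their values say little here. They were within 1.5-fold of each other in cells with and without Ccr2 in both libraries, with median log2 ratios of -0.34 and -0.18.

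Ccl8, Ccl12 and Ccl7 lie together with Ccl2 on chromosome 11 (GRCm38). Ccl2 is at 82035571 to 82037453, Ccl7 at 82045712 to 82047525, Ccl12 at 82101845 to 82103400 and Ccl8 at 82115185 to 82116799. Ccl9 (83572919 to 83578636), Ccl6 (83587882 to 83593087), Ccl3 (83647844 to 83649355) and Ccl4 (83662584 to 83664683) lie together further along the same chromosome. Neighbours did not all share a direction in cells with Ccr2. In the first group Ccl2 had ratios of 0.842 and 0.426, below 1.5-fold in the isotype control. In the second, Ccl9 had ratios of 1.80 and 5.66, as Ccl6 was higher, while Ccl3 had 0.443 and 1.02 and Ccl4 0.977 and 1.87.

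Cells with a Cx3cr1 UMI (45 and 26) had another pattern against those without (178 and 75). Of the 1480 genes 44 (2.97%) were higher in both libraries and 105 (7.09%) lower. Ccl3 was at 1611 against 183 CPM (ratio 8.82, 6.54 to 12) and at 2308 against 287 CPM (8.05, 5.64 to 11.7), and Ccl4 at 3722 against 694 CPM (5.36) and 4615 against 780.0 CPM (5.92). Gpr183, a receptor for oxysterols, had ratios of 7.72 and 14.9. A few cells carried part of this: without the 5 cells with most UMIs of the gene in each library the ratios were 3.77 and 4.67 for Ccl3, 4.11 and 3.06 for Ccl4 and 3.81 and 4.76 for Gpr183. Without doublet signs the anti-Gr-1 ratios were 4.16 for Ccl3 and 2.86 for Ccl4. Of 7 measured genes of microglia and nerve macrophages 3 were higher, 1 of which is Cx3cr1 itself, and 1 lower. The lysophospholipid receptor Gpr34 had ratios of 2.89 and 2.38, with medians of the list at 0.76 and -0.29. Stab1 had ratios of 2.07 and 2.55, but without the 5 cells with most of its UMIs the isotype control ratio was just under 1.5-fold (interval 0.851 to 2.53) and the anti-Gr-1 ratio 2.15. Tnf had ratios of 1.95 and 3.85 (1.56 in anti-Gr-1 without doublet signs), with the opposite direction in male isotype control cells (log2 ratio -0.63) and female anti-Gr-1 cells (-0.22).

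On the other side, Ccl8 was at 356 against 2601 CPM and 288 against 2520 CPM with Cx3cr1, ratios of 0.137 and 0.114 (0.266 in anti-Gr-1 without the 5 cells with most of its UMIs). Lgals3, the lectin galectin 3, had ratios of 0.337 and 0.361, the carbonyl reductase Cbr2 of 0.357 and 0.288 and Ccl6 of 0.433 and 0.422. Cd74 was at 8256 against 11949 CPM and 3846 against 10007 CPM, ratios of 0.691 and 0.384. Ccl8 was thus low in cells with Ccr2 and in cells with Cx3cr1, with an exception among the few anti-Gr-1 female cells, where the log2 ratio with Cx3cr1 was 0.98.

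Cells with MHC class II RNA at 1% or more (164 and 56) stood against those below (59 and 45) with 51 genes (3.45%) higher in both libraries and 51 genes (3.45%) lower. Of 5 measured recruited monocyte genes 4 were higher, among them Ccr2 (ratios 2.33 and 9.64) and Lyz2, the lysozyme of phagocytes (1.93 and 2.25). Of 15 resident genes 1 was higher and 5 lower, and Stab1 was at 116 against 492 CPM and 116 against 567 CPM. Cx3cr1 was at 125 against 466 CPM and at 107 against 600.0 CPM, and Ccl12 had ratios of 0.534 and 0.235. Ccl3 had ratios of 0.184 and 0.519, which were 0.477 and 0.737 without the 5 cells with most of its UMIs, and the anti-Gr-1 log2 ratio was 0.04 without doublet signs. High class II RNA therefore came with recruited monocyte genes and with less Cx3cr1 and Stab1 in these cells.

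**Figure D4:**
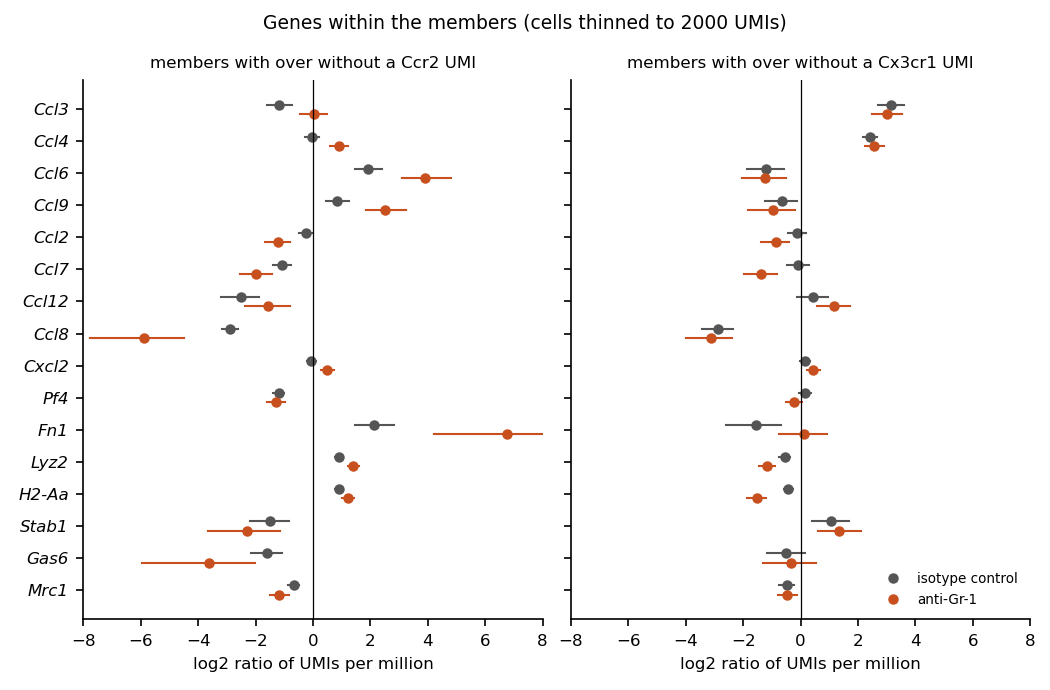
Log2 ratio of CPM (nothing added) in members with over members without a Ccr2 UMI (left) or a Cx3cr1 UMI (right), thinned to 2000 UMIs; points are libraries and bars 95% intervals for counting error, which the axis cuts at 8 for Fn1. Ccl3 and Ccl4 lie to the right for Cx3cr1, Fn1 and Ccl6 to the right for Ccr2, and Ccl8 to the left for both.

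Between the libraries, most genes of the members were within 1.5-fold. Of 8155 genes with at least 20 UMIs, 299 (3.67%) were 1.5-fold or more higher in the anti-Gr-1 library and 625 (7.66%) lower, with a median log2 ratio of -0.05. These numbers depend on the UMI minimum: with at least 100 UMIs per gene, which leaves fewer genes to count, they were 50 and 115. With only genes at 3 times the T cell level or more (968 genes) they were 90 and 66, more on the higher than on the lower side. T cell barcodes carried less myeloid RNA in the anti-Gr-1 library (2294 and 1783 CPM over the 16 identity genes), so this limit can be easier to pass there. It also leaves out genes whose RNA the T cells make themselves. The part of both in these counts, and in the medians given at this limit below, was not tested.

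Genes of recruited monocytes were lower in the anti-Gr-1 cells: 6 of 13 measured genes by 1.5-fold or more and 0 higher, with a median log2 ratio of -0.56. Plac8, a monocyte protein, had 134 UMIs, spread over 25 members, in the isotype control library and 2 UMIs in the anti-Gr-1 library, 85.6 and 2.14 CPM. Ly6c2, which encodes a target of the antibody, had 40 UMIs in 9 cells and 1 UMI, 25.6 and 1.07 CPM. T cell barcodes showed the same direction, with 50.5 and 8.33 CPM of Plac8 and 21.2 and 6.18 of Ly6c2, and the part of free RNA was not tested. Chil3, a chitinase-like protein, had 55 UMIs, all in 1 isotype control cell, and none in the anti-Gr-1 cells, where a count of 0 allows up to 3.21 CPM. The most abundant genes of the list did not share this: Ccr2 was at 851 and 740 CPM, Fn1 at 448 and 475 and Lyz2 at 3916 and 5614. With only the 3 genes at 3 times the T cell level the median was 0.08, and over the 6 genes measured in female cells it was 0.15, while over all 13 genes the female median was -0.28. Without the cells with doublet signs it was -1.51.

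Resident macrophage genes outside the rule were slightly higher, with a median of 0.21, 1 of 19 measured genes 1.5-fold higher and 2 lower. Cd163 was at 357 and 532 CPM and Stab1 at 189 and 266. Marco, a scavenger receptor, had 10 and 16 UMIs, and the lectin genes Cd209d and Cd209b were at 148 and 57.8 CPM and at 23.6 and 4.28 CPM. The median was -0.04 with a C1q limit of 0.5%. In female cells it was -0.03 over the 17 genes measured there and 0.05 over the same 19 genes.

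All 8 measured MHC class II genes were below a ratio of 1, though none by 1.5-fold, and their median was -0.28 (-0.11 with a C1q limit of 0.5%, -0.54 in female cells). H2-Ab1 was at 4436 and 3345 CPM, a ratio of 0.754 (0.723 to 0.787), Cd74 at 11925 and 9496 (0.796, 0.776 to 0.817) and H2-Aa at 5711 and 4739 (0.830, 0.80 to 0.86). T cell barcodes carried less as well, with 6198 and 3642 CPM of Cd74, and lower levels in the cells and less class II RNA from other cells cannot be told apart. Dendritic cell markers were also lower among the members: of 7 type 2 dendritic cell genes 3 were lower and 0 higher, with a median of -0.54, of 5 type 1 genes 3 and 0 (-0.62), of 4 genes of mature dendritic cells 2 and 0 (-0.65) and of 5 Langerhans cell genes 3 and 0 (-1.83). Their part in the class II values was not tested.

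The interleukin-1, NF-kB restraint and cytokine lists lay mostly on the lower side. Il1b was at 1035 and 635 CPM, a ratio of 0.614 (0.558 to 0.675), and Nlrp3 at 143 and 80.2 (0.561, 0.426 to 0.731), and 3 of 9 measured interleukin-1 family genes were 1.5-fold lower and 0 higher. Of 16 genes that restrain NF-kB and cytokine signals 6 were lower and 0 higher, with a median of -0.37. Among them were Tnip3, an inhibitor of NF-kB (167 and 65.3 CPM), Socs1, an inhibitor of cytokine receptors (32.6 and 10.7), and Ier3, an early response gene (645 and 386, ratio 0.599, 0.530 to 0.676). Il10, the inhibitory cytokine, was at 62.0 and 35.3 CPM. T cell barcodes carried 135 and 72.6 CPM of Tnip3 and 47.9 and 57.6 of Socs1, and 4 of the 16 genes reached 3 times the T cell level, with a median of -0.17. In female cells the median of the list was -0.92.

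Of 15 cytokines and growth factors 8 were lower and 0 higher, with a median of -0.62. The 7 genes at 3 times the T cell level had a median of -0.18, and the list had -1.24 in female and -0.22 in male cells. Csf1, the growth factor of macrophages, had 67 UMIs in 11 isotype control cells and 1 UMI in the anti-Gr-1 cells. Osm was at 98.4 and 50.3 CPM, Gdf15 at 206 and 110 and Ptgs2, which makes prostaglandins, at 119 and 43.9. Tnf was at 196 and 122 CPM. For Csf1, 91.0% of the isotype control UMIs came from 5 cells, so this difference rests on few cells, as does that of Ccl5 (103 UMIs in 15 cells against 9 in 2).

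The chemokines divided by gene, 3 of 18 higher and 3 lower, with a median of -0.05. Ccl12 was higher, at 280 and 493 CPM (ratio 1.76, 1.54 to 2.01), and so was its neighbour Ccl7, at 714 and 1189 (1.67, 1.53 to 1.81). Ccl2 (1069 and 1164 CPM) and Cxcl2 (3997 and 3737) were close, and Ccl8 was at 1884 and 1440. For Ccl12 50.1% of the anti-Gr-1 UMIs came from 5 cells, and without the 5 cells with most UMIs of the gene in each library it was at 209 and 263 CPM. Of 6 chemokine receptors 0 were higher and 1 lower.

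Genes induced by type I interferon stood higher for 5 of 22 and lower for 1, with a median of 0.19. The direction was not shared by the sexes, with a median of -0.70 in female and 0.22 in male cells. Rsad2, an antiviral enzyme, was at 17.3 and 61.0 CPM, Ifit1 at 8.31 and 37.4, and Xaf1 at 19.2 and 39.6. Few cells carry this too: the Ifit1 UMIs came from 9 cells in each library, and without the 5 cells with most UMIs Rsad2 had a log2 ratio of -0.04. The 22 lysosomal genes had a median of 0.00 with 0 higher and 0 lower, and 7 Fc receptor genes had 0.10, 0 and 0. Of 16 immediate early and heat shock genes, which tissue digestion is known to induce, 0 were higher and 1 lower, with a median of -0.27.

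By the rule for named genes, the widest differences upward were led by Mucl1, Rsad2, Cxcl10 and Retnla, of which 3 rested on few cells. Mucl1, a mucin-like secreted protein, stood at 187 and 1103 CPM, but 1031 UMIs in the anti-Gr-1 library came from 4 cells, and without the 5 top cells of each library its log2 ratio was -0.83. Retnla stood at 2735 and 5928 CPM, a ratio of 2.17 (2.08 to 2.26), and 80.5% of the anti-Gr-1 UMIs came from 5 cells, without which the log2 ratio was -0.38. Serpinb6a, a protease inhibitor, was spread over 111 and 68 cells, at 116 and 227 CPM (1.95, 1.59 to 2.39), and its log2 ratio without the top cells was 0.87. Cxcl10, Lyz1, Ccn1, Rab9, Plod1, Cp and Enox2 were further named genes, at log2 ratios of 0.84 to 1.12. Without the top cells Ccn1 had -0.16, and without doublet signs Lyz1 had -0.48.

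The 12 genes on the lower side were led by Cxcl9, whose 81 isotype control UMIs came from 7 cells, and by Mmp14, a membrane-bound matrix protease, at 51.8 and 8.56 CPM (ratio 0.165, 0.0691 to 0.342). Clec4e, a receptor for mycobacterial and fungal glycolipids, was at 90.7 and 28.9 CPM and Tnfaip2 at 69.6 and 23.5. Rab20, Osm, Noct, Gdf15, Slc30a1, Nlrp3, Ier3 and Ephx1 followed, with log2 ratios from -0.95 to -0.68. All 12 kept a log2 ratio below 0 without the 5 top cells of each library, such as -2.36 for Mmp14, -2.75 for Clec4e and -1.03 for Nlrp3. By sex, Cxcl9 in male cells (0.85) and Clec4e in female cells (0.50) went the other way.

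**Figure D5:**
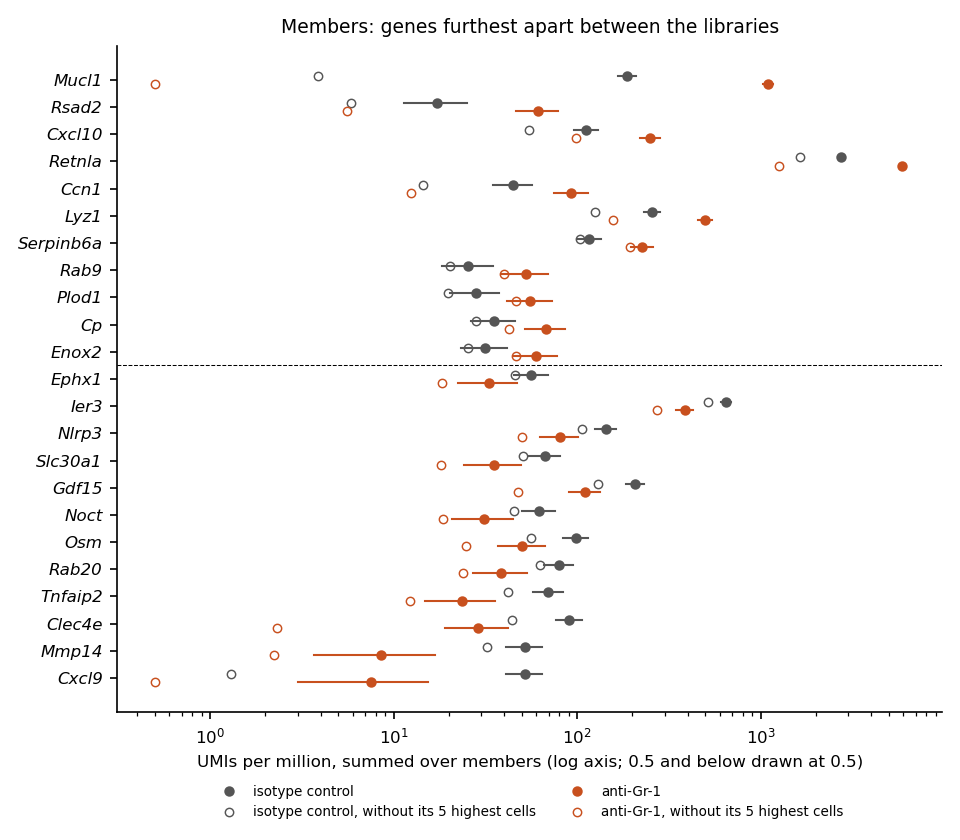
CPM (log axis) of genes named between the libraries, summed over members; filled points with 95% Poisson intervals are all members and open points leave out the 5 cells with most UMIs of the gene in each library. Open points of Mucl1 and Retnla change order between the libraries, and those of Mmp14, Clec4e and Nlrp3 do not.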

How the data were processed

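Live CD45+ skin cells of 1 isotype control and 1 anti-Gr-1 pool were sequenced with the 3′ v2 droplet chemistry, per the labels' protocols. The deposited files give raw UMI counts of each gene in each barcode. Per the file headers the authors counted with Cell Ranger 4.0.0, and per the submitters' processing notes the build was mm10. Groups came from the treatment label. Doublets were not removed; barcodes with signs of them were left out as an alternative.

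Members, gene lists and comparisons were chosen with earlier results of these data known. UMIs were summed over members per library and scaled to 1e+06 (CPM), and log2 ratios had 5 CPM added. Genes with 20 or more UMIs over the groups compared counted as measured, and the threshold of 1.5-fold is no test. Shares have 95% Clopper-Pearson, counts exact Poisson and ratios exact conditional intervals. For shares and comparisons within the members, each cell was thinned to 2000 UMIs. Between the libraries, the rule named 12 genes furthest in each direction, of those with 50 or more UMIs and 50 or more CPM in 1 library, at 3 times the T cell level or more there. Against resident macrophages it took the 12 genes furthest each way in both libraries. Identity genes and up to 4 members of each list with the widest ratios were named too, and other genes were chosen after their values were seen. Some genes that the rule names are not reported here.

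Female cells had Xist UMIs and no Y-linked UMI, male cells the reverse. Gene positions came from GENCODE M21 and promoters from RefSeq. Alternatives changed the C1q and resident limits, depth, UMI minimum, added CPM, sex, doublet signs and the cells with most UMIs of a gene. Python 3.11.15 with numpy 2.4.6, scipy 1.17.1, pandas 2.3.3 and matplotlib 3.10.9 was used, and the code was tested on simulated data.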

Additional observations from a re-analysis of the deposited data

Results flagged for a closer look

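For 3 of the genes named between the libraries, the 95% intervals of the ratio in female and in male cells lay on opposite sides of 1, counting error only. The difference between the sexes was not tested, the female and male cells come from different mice of the same pools, and the anti-Gr-1 library had 20 female and 63 male members against 97 of each in the isotype control. Mucl1 had a log2 ratio of anti-Gr-1 over isotype control of -5.87 in female and 2.68 in male cells. Cxcl10, a chemokine induced by interferon, had -1.84 in female and 0.91 in male cells. Retnla had -0.998 in female and 1.56 in male cells. In all 3 genes the female anti-Gr-1 cells were below the female isotype control cells. Clec4e (0.50 in female, -2.27 in male cells) and Cxcl9 (-4.46 and 0.85) also had opposite signs, with an interval that reached 1 in 1 sex.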

How the results depend on the processing

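The share ratio of the members was 1.15 with a C1q limit of 0.5% and kept below 1 in its other 6 alternatives. The count of genes 1.5-fold higher in anti-Gr-1 (299) was 550 with the mean of each cell's CPM, 477 with 1 CPM added, 554 with a minimum of 1 UMI, 50 with 100 UMIs, 90 at 3 times the T cell level and 559 in female cells. The lower count (625) was 1010, 1141, 115 and 66 with per-cell means, 1 UMI, 100 UMIs and 3 times the T cell level. The number of genes measured also changes with several of these settings, so the counts cannot be compared as shares. The resident gene median (0.21) was -0.036 with a C1q limit of 0.5%, 0.30 with no resident UMI, 0.32 without doublet signs, -0.026 in female and 0.085 in male cells. The MHC class II median (-0.28) was -0.11 with the 0.5% limit, -0.33 after thinning, -0.54 in female and -0.20 in male cells, and no class II gene reached 3 times the T cell level, so that alternative gave no value. The NF-kB restraint median (-0.37) was -0.17 at 3 times the T cell level and -0.92 in female cells. Against resident macrophages, the higher count (285) was 127 with 100 UMIs, 78 at 3 times the T cell level and 129 in female cells, and the lower count (373) was 177, 231 and 196 there and 227 after thinning. These alternatives against resident macrophages, by sex for named genes and without top cells were chosen after seeing the data.

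Log2 ratios that changed sign were, without the 5 top cells, Mucl1 -0.83, Rsad2 -0.041, Retnla -0.38 and Ccn1 -0.16; after thinning, Rsad2 -0.19 and Enox2 -0.016; without doublet signs, Lyz1 -0.48; in female cells, Mucl1 -5.87, Cxcl10 -1.84, Retnla -0.998 and Clec4e 0.50; and in male cells, Cxcl9 0.85. Within the members, Tnf with Cx3cr1 was -0.63 in male isotype control and -0.22 in female anti-Gr-1 cells, Ccl8 with Cx3cr1 0.98 in female anti-Gr-1 cells, and Ccl3 with MHC class II 0.036 in anti-Gr-1 without doublet signs. The cause of these changes was not tested. Counts of UMIs limit the female anti-Gr-1 values most, which rest on 20 cells.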

Other observations

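Lists not described above divided between the libraries in few genes. Of 12 genes induced by glucocorticoids 3 were 1.5-fold or more higher in the anti-Gr-1 members and 2 lower: Fkbp5, a chaperone of the glucocorticoid receptor, was at 17.9 and 36.4 CPM and Klf9 at 48.6 and 81.3, while the metallothioneins Mt1 and Mt2 were at 2022 and 1273 CPM and at 146 and 63.1 CPM. Of 17 lipid handling genes 0 were higher and 4 lower, with a median log2 ratio of -0.19, among them Cd9, a tetraspanin (104 and 37.4 CPM), and the fatty acid carrier Fabp5 (163 and 96.3 CPM). Of 28 transcription factors 1 was higher, Hes1, a target of Notch (29.4 and 52.4 CPM, and a log2 ratio of -0.61 without the 5 cells with most of its UMIs in each library), and 4 lower, among them the myeloid factor Irf8 (161 and 103 CPM). Of 17 genes for the uptake of apoptotic cells 0 were higher and 3 lower, with 76.7 and 16.0 CPM of Mfge8, a bridging protein.

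Of 8 mast cell genes 5 were measured in the members and these 5 were lower in anti-Gr-1, with a median of -1.49, such as Mcpt4, a mast cell protease, at 77.3 and 26.7 CPM. T cell barcodes carried 280 and 232 CPM of Mcpt4, above the members of both libraries.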
